A study of Mus musculus with 10 samples.

Results

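The miR-26 family of the mouse heart was measured by small RNA sequencing in 10 libraries. The family was taken as the rows named mmu-miR-26a-5p and mmu-miR-26b-5p in the deposited miRNA tables, which is 2 of 1139 mature miRNAs. The first group was 5 libraries from hearts labelled CITED4 knockout, and the second was 5 libraries from hearts labelled floxed control. All hearts came from male C57Bl6N mice 1 week after transverse aortic constriction (TAC), an operation that narrows the aorta and loads the left ventricle with pressure. CITED4 is a transcriptional co-regulator, and in a floxed control its gene carries recombination sites without being deleted. The labels name no Cre driver, so it is not known here which cells lost CITED4, and miRNA counts hold no CITED4 messenger RNA with which to check the genotypes. All libraries followed the operation, so an effect of the loading itself was not analysed here.

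A miRNA is a short RNA cut from a hairpin. One arm, the guide, is loaded into an Argonaute protein and pairs with target messenger RNAs mainly through its seed, bases 2 to 8, while the other arm, the passenger, is mostly degraded. In rodent hearts miR-26 has been described as a brake on hypertrophic growth and on fibrosis, with the cardiac transcription factor GATA4 and collagen transcripts among its reported targets. The hairpins lie in genes of the CTDSP family, phosphatases that act on the C-terminal domain of RNA polymerase II.

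The mature guides are shown because both members carry the same seed and differ elsewhere (RefSeq sequences on GRCm38.p6, 5′ to 3′, seed in capitals).
miR-26a-5p: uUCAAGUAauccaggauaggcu
miR-26b-5p: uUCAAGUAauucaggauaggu
The sequences are identical over the first 10 bases. Counted from 1 at the 5′ end, miR-26b-5p differs from miR-26a-5p by C11U and C21U and is 1 base shorter, at 21 against 22 bases. A read can be assigned to one member by these bases only, and how the authors treated reads with mismatches or several matches is not given in the sources used here. Among the mature mouse miRNAs of RefSeq, the seed occurred in these 2 alone; 951 of the 1139 deposited miRNAs had an entry there.

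The hairpins are shown because miR-26a-5p is made from a pair of loci that only the passenger arms can tell apart (capitals mark the 5p and the 3p arm).
Mir26a-1: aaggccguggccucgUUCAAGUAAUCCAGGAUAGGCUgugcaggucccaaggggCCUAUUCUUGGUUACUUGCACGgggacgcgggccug
Mir26a-2: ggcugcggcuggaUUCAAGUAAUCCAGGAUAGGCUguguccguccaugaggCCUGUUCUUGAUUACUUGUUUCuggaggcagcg
Mir26b: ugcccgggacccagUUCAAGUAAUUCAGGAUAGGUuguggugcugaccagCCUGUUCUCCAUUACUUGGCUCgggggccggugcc
Mir26a-1 lies at chr9:119031796-119031885 on the plus strand, in an intron of Ctdspl in all 3 GENCODE transcripts that span it. Mir26a-2 lies at chr10:126995530-126995613 on the plus strand of Ctdsp2, in intron 5 of one protein-coding transcript and within exon 1 of another protein-coding transcript and of a retained-intron transcript. Mir26b lies at chr1:74394310-74394394 on the plus strand, in an intron of Ctdsp1 in both transcripts that span it. The 3p arms of Mir26a-1 and Mir26a-2 differ at 6 of 22 positions, beginning with A4G. As a result miR-26a-2-3p has the same bases 2 to 8 as miR-26b-3p (CUGUUCU), while miR-26a-1-3p has CUAUUCU.

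The total per library lay between 7526091 and 18369483 counts, knockout replicate 5 being the deepest and control replicate 3 the shallowest, with 678 to 785 miRNAs detected. Markers listed for heart muscle were abundant. The 4 cardiomyocyte miRNAs were miR-1a-3p, miR-133a-3p, miR-208a-3p and miR-499-5p. Together they took 25.2% to 36.1% of counts in knockout libraries and 27.4% to 39.8% in control libraries. Most of that sum was miR-1a-3p, which alone took 32.0% of all counts over the 10 libraries. The neural miR-124-3p had 0 counts in every library. The liver miR-122-5p was at 0.0106% of counts or less. The erythroid miR-144-3p and miR-486a-5p together took 1.39% to 2.45% of counts in knockout libraries and 1.54% to 3.72% in control libraries. Nearly all of that sum was miR-486a-5p, which alone took 1.91% of all counts over the 10 libraries. The other erythroid marker, miR-451a, was absent from the miRNAs counted and was not analysed here. Levels below are the deposited normalized read counts, that is counts divided by 1 size factor per library, and whether each library is a separate animal is not stated in the labels, so the p-values rest on a spread between libraries that may be technical. In RNA of whole heart samples, fewer cells of a type and less RNA per cell cannot be told apart.

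miR-26a-5p was the more abundant member and one of the most abundant miRNAs of these hearts. It ranked between 7 and 12 in the knockout libraries and between 4 and 9 in the control libraries, and took 2.06% to 2.72% and 2.33% to 3.75% of all counts. Its mean over the 10 libraries, 284563 normalized counts, placed it at rank 8. The vascular miR-143-3p stood just above it at 332003, and miR-30a-5p, an abundant cardiac miRNA, just below it at 265380. Those neighbours did not hold a fixed order with miR-26a-5p: miR-143-3p was higher in 6 and miR-30a-5p in 3 of 10 libraries. let-7c-5p, a member of the let-7 family at rank 6, exceeded miR-26a-5p in 9 of 10 libraries, and the endothelial miR-126a-3p at rank 10 did so in 2.

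miR-26b-5p ranked between 33 and 43 in knockout libraries and between 34 and 40 in control libraries, with 0.192% to 0.265% and 0.210% to 0.283% of counts. Its mean of 26106 normalized counts was at rank 37. miR-29c-3p, a miRNA that targets collagen transcripts, and miR-93-5p, of the miR-17 seed family, stood above it at 28924 and 28017, and miR-30b-5p and miR-125a-5p below it at 25111 and 22528. Each of these 4 exceeded miR-26b-5p in 4 to 6 of the 10 libraries, so the order among them was not fixed. Ligation of adapters depends on sequence, so a rank orders read counts and not molecules.

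**Figure D1:**
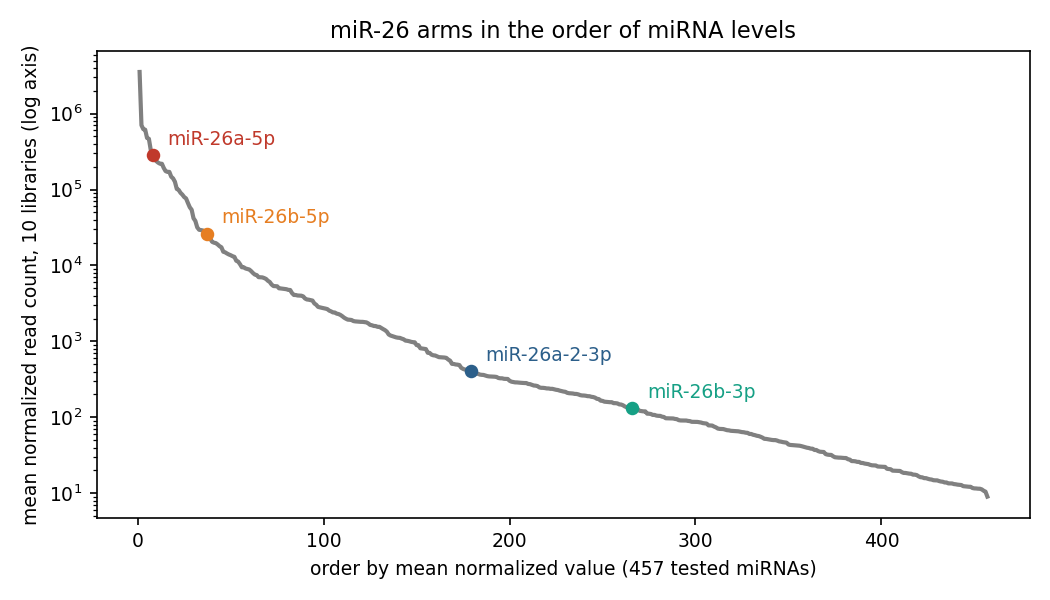
Mean normalized read count over 10 libraries (log axis) of the 457 tested miRNAs, ordered from the most to the least abundant. The points mark miR-26a-5p at 284563, miR-26b-5p at 26106, miR-26a-2-3p at 409 and miR-26b-3p at 131; miR-26a-1-3p was too rare to be tested.

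The design compares CITED4 knockout with control hearts under pressure load. In the knockout libraries miR-26a-5p was at 201271, 190086, 322414, 300354 and 247966 normalized counts (replicates 1 to 5). The control libraries had 245931, 261397, 359627, 332585 and 384003. The groups overlapped: 4 of 5 knockout libraries were below the control mean, and knockout replicates 3 and 4 exceeded control replicates 1 and 2. The means were 252418 ± 58563 in knockout and 316709 ± 60604 in control (SD, n = 5 each), a ratio of 0.797. On the log2 scale the fitted difference was -0.33 ± 0.19 (SE), with a 95% interval from -0.74 to 0.086, and it did not pass the test (unadjusted p = 0.111, adjusted p = 0.641, edgeR's quasi-likelihood test adjusted over 457 miRNAs). As a fold this interval reaches from 0.600 to 1.06 of the control level, so these libraries leave the size of a difference imprecise.

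miR-26b-5p had a smaller difference in the same direction. Its values were 20432, 17745, 31686, 29316 and 22762 normalized counts in knockout replicates 1 to 5. Control replicates 1 to 5 had 19902, 24457, 27134, 32886 and 34735. The ranges overlapped almost entirely, with 3 of 5 knockout libraries below the control mean and control replicate 1 below 4 of the knockout libraries. The means were 24388 ± 5915 in knockout and 27823 ± 6082 in control (SD, n = 5 each). The fitted log2 difference was -0.19 ± 0.19 (SE; 95% interval -0.61 to 0.23; unadjusted p = 0.346, adjusted p = 0.681, edgeR's quasi-likelihood test), which is 0.657 to 1.17 of the control level. The difference shrank to between -0.11 and -0.075 when knockout replicate 1 or 2 or control replicate 4 or 5 was left out. Of all 457 tested miRNAs, 0 were called at an adjusted p of 0.05 (0%), and 29 had an unadjusted p under 0.05 (6.35%); neither member was among the 29. By DESeq2 the call count was 0 and 45 of 1105 miRNAs had an unadjusted p under 0.05; by limma on the normalized values these were 0 and 22 of 457.

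**Figure D2:**
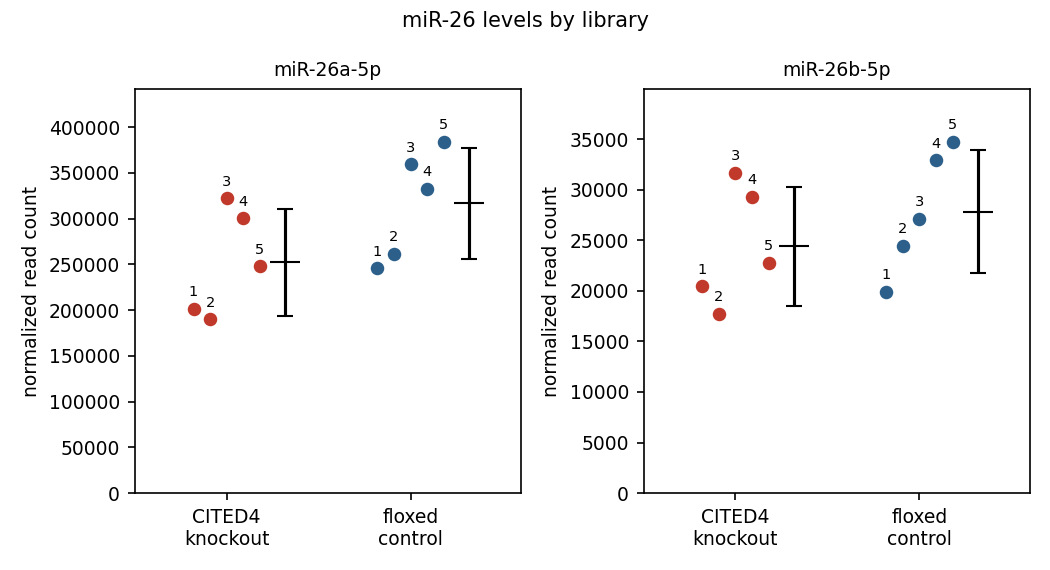
Normalized read counts of miR-26a-5p (left) and miR-26b-5p (right) in each library. Points are libraries numbered by replicate, and the bar beside each group is the mean ± SD (n = 5). The groups overlap in both panels, and replicates 1 and 2 lie low in both genotypes.

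The members varied together from library to library. In normalized counts, control replicate 5 was the highest and knockout replicate 2 the lowest library for both. As a percent of counts, control replicate 3 was the highest for both (3.75% and 0.283%), and knockout replicate 2 again the lowest. The highest normalized value was 2.02 times the lowest for miR-26a-5p and 1.96 times for miR-26b-5p. The Poisson counting error was at most 0.233% of the count for miR-26a-5p and 0.764% for miR-26b-5p, and it covers no other source of this spread. The coefficient of variation of miR-26a-5p was 23.2% in knockout and 19.1% in control libraries, which was rank 16 and rank 8 from the steadiest of 25 tested miRNAs within 4-fold of its level. miR-26b-5p varied by 24.3% in knockout and 21.9% in control libraries, at rank 40 and rank 32 of 49 miRNAs of comparable level, so it was among the less steady ones there.

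The summed share of markers listed for fibroblasts and other mesenchymal cells was high where the normalized miR-26 values were low. The summed share of miR-21a-5p, miR-199a-3p and miR-214-3p was 12.2%, 15.0%, 7.40%, 5.11% and 11.1% of counts in knockout replicates 1 to 5, against 12.1%, 9.85%, 4.49%, 3.62% and 3.14% in control replicates 1 to 5. In normalized counts, the 5 libraries with the highest mesenchymal share also had the 5 lowest values of miR-26a-5p and of miR-26b-5p. They were knockout replicates 1, 2 and 5 and control replicates 1 and 2. The marker share is a percent of counts, and on that scale the match for miR-26a-5p was not complete. There control replicate 4, at 2.45%, was below control replicate 1, at 2.59%. All 3 markers of that list had higher means in knockout, and 0 of 3 passed the test. miR-21a-5p made up most of the sum, with normalized means of 836908 in knockout and 570755 in control. Those means were 193899 and 148013 for miR-199a-3p and 2016 and 1655 for miR-214-3p. The cardiomyocyte markers, mostly miR-1a-3p, took 27.4%, 25.2%, 35.0%, 36.1% and 31.8% in knockout replicates 1 to 5 and 27.4%, 31.0%, 28.2%, 39.8% and 38.6% in control replicates 1 to 5. Of the 5 lowest cardiomyocyte shares, 4 were in the same 5 libraries, and the other was in control replicate 3. The erythroid miR-144-3p and miR-486a-5p, mostly miR-486a-5p, took 1.39%, 1.47%, 1.74%, 2.45% and 1.66% of counts in knockout replicates 1 to 5. Their share was 1.54%, 1.86%, 3.72%, 2.01% and 2.40% in control replicates 1 to 5. The lowest, in knockout replicates 1, 2 and 5 and control replicate 1, were within the same 5 libraries, while control replicate 2 was above knockout replicate 3. Marker lists for endothelium (miR-126a arms), smooth muscle (miR-143-3p, miR-145a-5p) and leukocytes (miR-142a arms, miR-223-3p) did not set the same 5 libraries apart. Control replicate 3 was above control replicate 1 in smooth muscle share (3.75% against 3.14%) and leukocyte share (0.0975% against 0.0886%). The endothelial share was highest in knockout replicate 4, at 3.38%. The part of cell composition in the miR-26 levels was not tested.

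The ratio of the members varied less over the libraries than the normalized level of either. miR-26a-5p had 9.85, 10.7, 10.2, 10.2 and 10.9 counts per count of miR-26b-5p in knockout replicates 1 to 5. Control replicates 1 to 5 had 12.4, 10.7, 13.3, 10.1 and 11.1. The ratio spanned 1.35-fold over the 10 libraries, and the SD of its log2 value was 0.14, against 0.34 for the normalized level of each member. That contrast depends on the scaling of libraries. As a percent of counts, the coefficient of variation over the 10 libraries was 12.9% for miR-26b-5p, against 22.7% in normalized counts. For miR-26a-5p it was 18.5% against 23.1%. All 5 knockout ratios were below the control mean, and they fell within a narrower range than the control ratios, with means of 10.4 ± 0.423 in knockout and 11.5 ± 1.28 in control (SD, n = 5 each). The mean log2 ratio was lower in knockout by a difference of -0.14 that did not pass (exact two-sided permutation test, p = 0.111, adjusted p = 0.337 over the 5 ratio and share measures; the smallest possible p is 0.00794). Without control replicate 4, the control with the lowest ratio, the difference was -0.19 with an unadjusted p of 0.0238 in the same exact test, and without control replicate 3 it was -0.088 with p = 0.198.

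Together the members took 2.47%, 2.25%, 2.95%, 2.98% and 2.44% of all counts in knockout replicates 1 to 5. Control replicates 1 to 5 had 2.80%, 2.54%, 4.03%, 2.69% and 3.13%. The share of the whole seed family averaged 2.62% ± 0.329 in knockout and 3.04% ± 0.595 in control (SD, n = 5 each). All 5 knockout shares were below the control mean, which control replicate 3 raised, and the difference of -0.421 percentage points did not pass (exact two-sided permutation test, p = 0.214, adjusted p = 0.357). Without control replicate 3 the difference was -0.173 percentage points (p = 0.413, same exact test), and 3 of 5 knockout shares were below the control mean of 2.79%. Of the 457 tested rows, 15 had the same counts as another row in all 10 libraries, and 0 of these were miR-26 rows; 8 of them repeat an earlier row, so a share refers to the sum of the deposited counts.

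**Figure D3:**
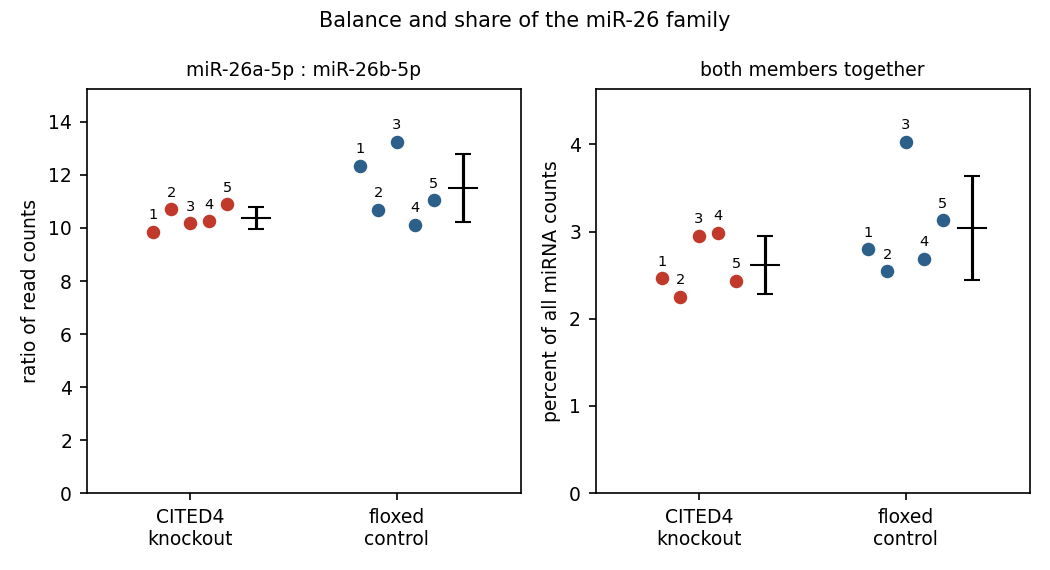
Ratio of miR-26a-5p to miR-26b-5p read counts (left) and the percent of all miRNA counts taken by both members (right), by library. Points are numbered by replicate, and bars are the mean ± SD (n = 5). Knockout ratios lie between 9.85 and 10.9 and control ratios between 10.1 and 13.3.

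The passenger arms showed that almost all assignable miR-26a passenger reads came from Mir26a-2. miR-26a-2-3p had 2700 counts over the 5 knockout libraries and 1702 over the 5 control libraries, while miR-26a-1-3p had 42 and 35. The Mir26a-1 locus thus gave 1.53% of both 3p arms in knockout (95% interval 1.11 to 2.06) and 2.01% in control (1.41 to 2.79; exact Clopper-Pearson intervals, which cover counting error only). By library, the Mir26a-2 share was 97.8% to 98.9% in knockout and 96.7% to 100% in control, and the means of 98.4% ± 0.422 and 98.2% ± 1.50 (SD, n = 5 each) differed by less than the libraries of a group did (p = 0.802, adjusted p = 0.802, exact permutation test, two-sided). Control replicate 3 had 0 counts of miR-26a-1-3p among 218 passenger counts, which allows a share of up to 1.38%. A passenger arm that is degraded faster gives fewer reads, so these shares do not give the share of miR-26a-5p made at each locus.

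miR-26a-2-3p was the arm whose mean was higher in knockout. It was at 568, 383, 367, 409 and 465 normalized counts in knockout replicates 1 to 5. The values in control replicates 1 to 5 were 384, 510, 278, 373 and 348. The groups overlapped, with 4 of 5 knockout libraries above the control mean and control replicate 2 above 4 of the knockout libraries. The means were 438 ± 81.3 and 379 ± 84.3 (SD, n = 5 each), and the log2 difference of 0.21 ± 0.18 (SE) did not pass (95% interval -0.18 to 0.61, adjusted p = 0.651, edgeR's quasi-likelihood test). It was 0.14 without knockout replicate 1 and 0.35 without control replicate 2.

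miR-26b-3p, the passenger of Mir26b, was at 101, 103, 105, 160 and 120 normalized counts in knockout replicates 1 to 5. Control replicates 1 to 5 had 111, 135, 126, 201 and 150. Of the knockout libraries, 4 were below the control mean, and the groups overlapped. Its means were 118 ± 24.5 in knockout and 145 ± 34.7 in control (SD, n = 5 each), with a log2 difference of -0.29 ± 0.21 (SE; adjusted p = 0.641, edgeR's quasi-likelihood test), and of -0.13 without control replicate 4. With 99 to 199 raw counts per library, counting error alone was 7.09% to 10.1% of its value. miR-26a-1-3p, at 6 to 12 counts in knockout libraries and 0 to 16 in control libraries, was left out of the test by the filter on low counts.

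The guide far exceeded the passenger for miR-26a, with its hairpins pooled, and for miR-26b. For miR-26a the ratio of the 5p arm to both 3p arms was 350, 488, 857, 721 and 526 in knockout replicates 1 to 5. In control replicates 1 to 5 it was 627, 497, 1291, 886 and 1065. The ratio was below the control mean in 4 of 5 knockout libraries, with means of 588 ± 200.4 in knockout and 873 ± 322 in control (SD, n = 5 each). The log2 difference was -0.55, which is 0.681 of the control ratio, and it did not pass (exact two-sided permutation test, p = 0.135, adjusted p = 0.337). For miR-26b the ratio of the 5p to the 3p arm was 201, 171, 301, 183 and 189 in knockout replicates 1 to 5 and 179, 180, 214, 163 and 230 in control replicates 1 to 5. Its mean log2 ratio differed by 0.092 (exact two-sided permutation test, p = 0.659, adjusted p = 0.802), and without knockout replicate 3 the sign turned, to -0.047.

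The passengers of Mir26a-2 and Mir26b were balanced differently from the miR-26a and miR-26b guides. miR-26a-2-3p had 5.59, 3.69, 3.50, 2.56 and 3.86 counts per count of miR-26b-3p in knockout replicates 1 to 5. The control libraries had 3.46, 3.75, 2.20, 1.85 and 2.31. This comparison was chosen after the values were seen. The means were 3.84 ± 1.10 in knockout and 2.72 ± 0.838 in control (SD, n = 5 each), and the mean log2 difference of 0.51 did not pass (exact two-sided permutation test, unadjusted p = 0.0714). The 5 libraries with the highest mesenchymal marker share gave 5 of the 6 highest values of this ratio, and the part of cell composition in it was not tested.

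**Figure D4:**
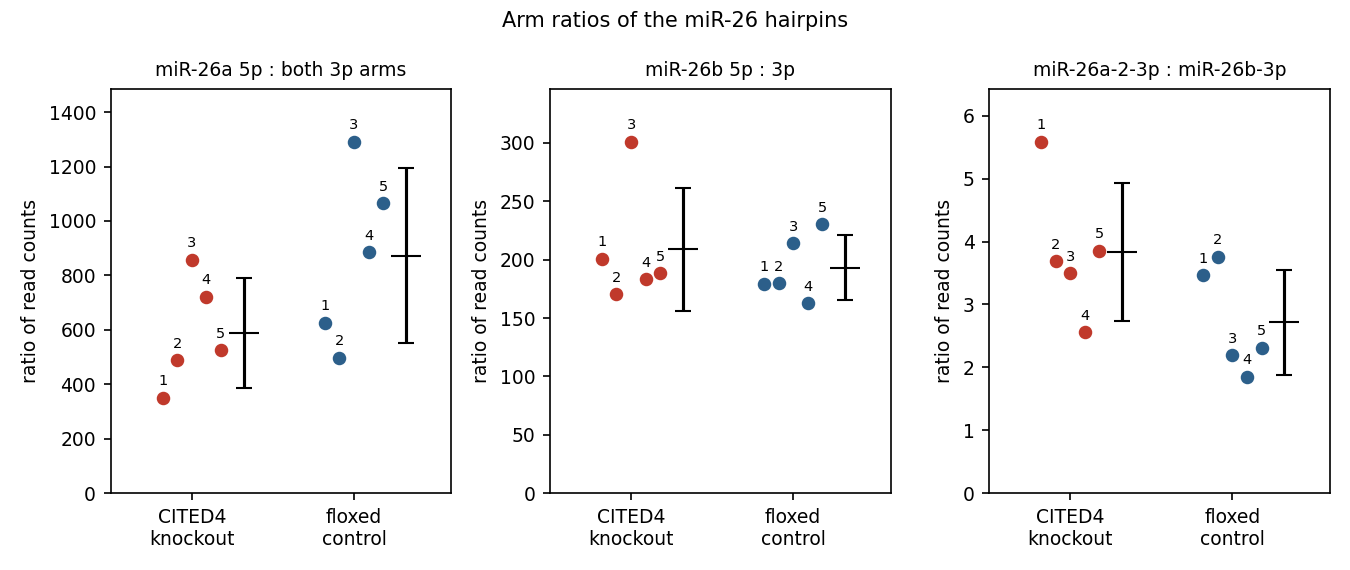
Ratios of read counts by library: miR-26a 5p arm to both 3p arms (left), miR-26b 5p to 3p arm (middle) and miR-26a-2-3p to miR-26b-3p (right). Points are numbered by replicate, and bars are the mean ± SD (n = 5). All 3 panels show overlapping groups, and knockout replicate 3 stands apart at 301 in the middle panel.

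The miRNAs that moved most like each member were found by the SD, over the 10 libraries, of the log2 ratio of their counts to its counts, which needs no scaling of libraries. A small SD means a near-constant ratio. For miR-26a-5p the closest of 455 other tested miRNAs were miR-133a-3p (SD 0.12), a muscle miRNA, then miR-130a-3p (0.13), miR-23b-3p (0.14), miR-181d-5p (0.14) and miR-29a-3p (0.15), against a median of 0.50 over all tested. For miR-26b-5p they were miR-30a-3p (0.11), miR-181b-5p (0.13), miR-23b-3p (0.14), miR-23a-3p (0.15) and miR-101b-3p (0.16), again against a median of 0.50. The median was taken over tested miRNAs of all levels, and a low count adds counting error to the SD. miR-23b-3p stood in both lists. With the family included, miR-26b-5p was the fourth closest to miR-26a-5p, and miR-26a-5p the third closest to miR-26b-5p.

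Other miRNAs described in rodent hearts as restraining hypertrophy or fibrosis were set beside the family. The list held 16 miRNAs, all of them tested. Of these, 14 had a lower and 2 a higher mean in knockout, that is 87.5% lower against 46.8% of all tested miRNAs, and 0 were called in either direction. The median log2 difference was -0.37, against 0.028 over all tested miRNAs. With 1 library left out it ran from -0.53 without knockout replicate 4 to -0.24 without knockout replicate 2, with 14 or 15 of the 16 lower each time. The list holds miR-1a-3p and miR-133a-3p, which are also among the cardiomyocyte markers above. The mesenchymal markers stood on the other side, with log2 differences of 0.56 for miR-21a-5p, 0.39 for miR-199a-3p and 0.28 for miR-214-3p, none of which passed the test, and the part of cell composition in the list's values was not tested. The list was chosen with earlier results of these data known, and families in it share seeds or hairpins, so its members are not separate measurements.

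The listed miRNAs with the smallest p were miR-133a-3p, miR-30a-5p, miR-133b-3p and miR-30d-5p. miR-133a-3p and miR-133b-3p are muscle miRNAs. miR-133a-3p was at 12773 ± 2323 normalized counts in knockout and 17599 ± 3731 in control, and miR-133b-3p at 3162 ± 777 and 4671 ± 1356 (SD, n = 5 each). miR-30a-5p, from a family abundant in heart muscle, was at 209783 ± 61858 in knockout and 320976 ± 75598 in control, so that its control mean was above that of miR-26a-5p and its knockout mean below it. miR-30d-5p was at 158070 ± 45838 in knockout and 226485 ± 44793 in control. Their log2 differences ran from -0.61 to -0.46, each at adjusted p = 0.641 by the edgeR quasi-likelihood fit and all 5 knockout libraries below the control mean. The interval of miR-26a-5p overlapped each of theirs.

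**Figure D5:**
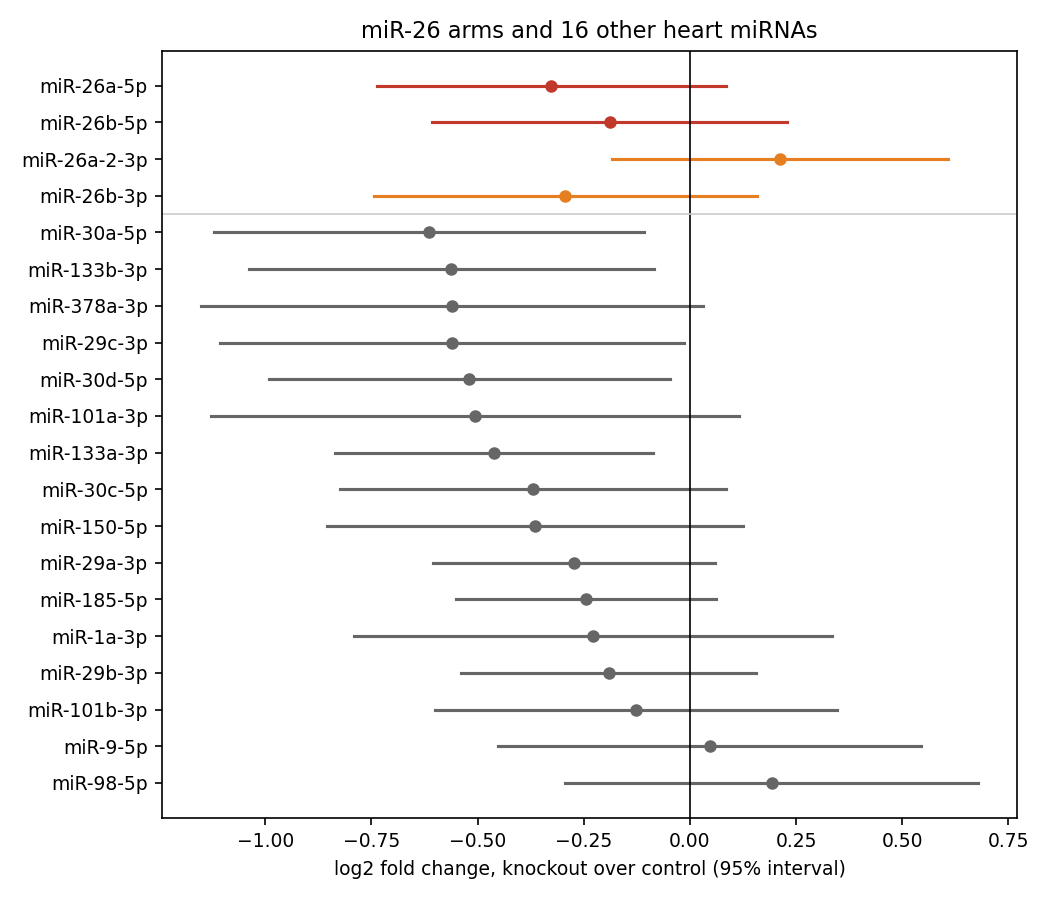
Fitted log2 fold change, knockout over control, with 95% intervals, for the 4 tested arms of the miR-26 hairpins (red and orange) and 16 other miRNAs described as restraining hypertrophy or fibrosis (grey), from the lowest to the highest. miR-26a-5p is at -0.33 and miR-26b-5p at -0.19, both with intervals that hold 0.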

How the data were processed

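The 2 tables used hold the same 1139 mature miRNAs, each with 10 library columns matched to GEO's samples by title. The authors deposited raw read counts in one. The other holds a signal, deposited counts divided by 1 factor per library, which equals the DESeq2 size factor computed here within a tolerance of 1e-09. Per the submitters' processing notes, cutadapt 1.10, Bowtie, STAR, DESeq2 and GRCm38 were used, with no role given; for the miRNA annotation, the handling of reads with several matches and molecular identifiers, the sources used here give nothing. Per the labels' protocols, a NEXTflex small RNA kit was used for the libraries.

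Raw counts were fitted with edgeR 4.0.16 in R 4.3.3 (filterByExpr, TMM factors, quasi-likelihood F test, genotype only, Benjamini-Hochberg adjustment over the 457 miRNAs kept, threshold 0.05). These held nearly all counts (99.99%). Ratios and shares were taken from raw counts within a library, with 0.5 added in arm ratios, and compared by exact permutation of libraries (scipy 1.17.1). RefSeq (GRCm38.p6) gave positions and sequences, and GENCODE (GRCm38) the host transcripts. The fits were tested on simulated data whose changes were far larger than the differences of the members. That test does not tell whether a difference of their size would be found. Alternatives were other size factors, library totals, no filter, DESeq2 1.42.0, limma 3.58.1 on log2(normalized value + 1), a replicate block and each library left out. Replicate numbers 1 to 5 recur in both groups with no stated meaning. The members and lists were chosen with earlier results of these data known. Named miRNAs are the members, their 3p arms, the 2 nearest in level on each side, the 5 with the steadiest ratio to each member, the marker lists, and the 4 listed miRNAs with the smallest p.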

Additional observations from a re-analysis of the deposited data

Results flagged for a closer look

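One value stood apart from the other libraries of its group. The log2 ratio of the 5p to the 3p arm of miR-26b was 8.23 in knockout replicate 3, against 7.41 to 7.65 in the other 4 knockout libraries, a gap of 0.712 of the range of the group where the 95% critical value for 5 samples is 0.71. In 18 groups of values examined, 1 was flagged, and chance flags about 1 in 20. The value rests on 46216 counts of miR-26b-5p and 153 of miR-26b-3p.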

How the results depend on the processing

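The levels of miR-26a-5p, miR-26b-5p, miR-26a-2-3p and miR-26b-3p kept their direction and stayed unpassed in all 16 alternatives each, and 0 miRNAs were called in any of them. The log2 difference of miR-26a-5p ranged from -0.41 to -0.22 with adjusted p from 0.303 to 0.993, and that of miR-26b-5p from -0.28 to -0.071 with adjusted p from 0.455 to 0.993. miR-26a-2-3p ranged from 0.14 to 0.35 and miR-26b-3p from -0.41 to -0.13. Library totals in place of TMM factors moved the median of all miRNAs by over 0.1, to 0.14, and gave -0.23 and -0.071 for the members. Counts at an unadjusted p under 0.05, 29 of 457 in the reported fit, were 14 with library totals, 102 of 1105 without a filter, 72 with the replicate block, and 6 to 84 with 1 library left out. Same-number libraries had deviations that correlated from -0.12 to 0.45. The numbers were to be taken as pairs only if all 5 were above 0.1, and 3 of 5 were, so they were not. Whether same-number libraries share a batch was not tested. With the replicate block miR-26a-5p was at -0.33 (unadjusted p = 0.0518, adjusted p = 0.315), miR-26b-5p at -0.19, and no call changed. Within same-number libraries miR-26a-5p, miR-26b-3p and the miR-26a arm ratio were lower in knockout in 5 of 5. miR-26b-5p was lower in 3 of 5 and miR-26a-2-3p in 1 of 5. For the miR-26a arm ratio the exact sign-flip p was 0.0625, the smallest that 5 differences allow. Leaving out 1 library gave -0.19 to -0.088 for the log2 ratio of the members, where only the fit without control replicate 4 was past 0.05 unadjusted. It gave -0.545 to -0.173 percentage points for the summed share and -0.047 to 0.16 for the miR-26b arm ratio, turned without knockout replicate 3, and -0.223 to 0.608 percentage points for the Mir26a-2 share, turned without control replicate 2 (-0.129) or 5 (-0.223). The log2 difference in the ratio of miR-26a-2-3p to miR-26b-3p, at 0.51, was at 0.64 (unadjusted p = 0.0476, exact permutation test) without control replicate 2. For these the cause was not tested.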
